A study of Mus musculus with 13 samples.

Results

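The canalicular exporters are the pumps that hepatocytes place in the apical membrane facing the bile canaliculus, and 9 of their genes were followed in mouse liver: Abcb11, Abcc2, Abcb4, Abcg5, Abcg8, Abcb1a, Abcg2, Atp8b1 and Atp7b. They were chosen by name, as carriers known to work at this membrane, when earlier results of these data were already known. Each was matched to 1 row of the count tables by its Entrez identifier, so that the 9 genes stand among 23725 rows of the table of both BDL groups. All 9 passed the filter on low counts in every comparison.

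Livers came from C57 mice of 3 months in 3 groups. Without bile duct ligation (BDL) there were 5 mice (no BDL), for which the labels give no injection, dose or day of harvest. After BDL, 4 mice received a control oligonucleotide (miR-Ctrl BDL) and 4 received anti-miR-873-5p, a hairpin inhibitor of miR-873-5p (here anti-miR BDL). The dose was 60 µg per mouse, injected with a lipid carrier into the tail vein 3 and 5 days after surgery, and all ligated mice were killed on day 7. No group was ligated and left uninjected, and no sham-operated group is described. The effect of the ligation therefore cannot be told apart from those of surgery, anaesthesia, analgesia and the carrier with its control oligonucleotide. The labels do not say whether mice of 1 group shared a cage, litter or day, and p-values measure the spread between these mice.

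Bile flow starts with these pumps. Abcb11 (BSEP) exports bile salts, Abcc2 (MRP2) exports bilirubin glucuronides and other conjugates, Abcb4 (MDR2) moves phosphatidylcholine to the outer leaflet, and the Abcg5-Abcg8 heterodimer exports cholesterol and plant sterols. Abcb1a and Abcg2 export xenobiotics, Atp8b1 is a flippase that maintains the lipid asymmetry of the canalicular membrane, and Atp7b exports copper. Ligation blocks the outflow of bile from the canaliculus that this membrane faces.

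Reads on genes ran from 12185333 to 19689037 per mouse. Values are CPM, counts relative to a library size that TMM adjusts so that the bulk of genes is level between libraries, on 1 scale for all 13 mice. Changes are log2 fold changes with their standard error (SE) from edgeR's quasi-likelihood test, and adjusted p is the Benjamini-Hochberg value over all genes tested, with 0.05 as the threshold. The gene of the targeted microRNA, Mir873a, had 0 reads in every mouse, and the libraries give no measure of mature microRNAs.

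Among the BDL livers, miR-Ctrl mouse 3 and anti-miR mouse 2 stood apart, and both are absent from the deposited table that compares the BDL groups. Summed levels of 10 cholangiocyte markers were 518.5 CPM in miR-Ctrl mouse 3, against 1145 to 1760 in the other 3 miR-Ctrl mice, and 260.1 in anti-miR mouse 2, against 1257 to 1723 in the other 3. Without BDL they were 71.3 to 161. Results against no BDL are therefore given with and without them. The 10 hepatocyte markers were all present and together took 12.9 to 14.2% of normalized counts without BDL, 8.98 to 12.5% in miR-Ctrl BDL and 8.22 to 13.6% in anti-miR BDL, with 5 and 3 of them lower and 1 and 0 higher. Their median log2 fold change against no BDL was -0.67 in miR-Ctrl BDL and -0.58 in anti-miR BDL, beside -0.011 and -0.007 over all genes. Of the cholangiocyte markers 9 of 10 rose in each BDL group against no BDL. Over all genes tested, 19.1% rose and 16.6% fell in miR-Ctrl BDL, and 13.1% and 8.44% did so in anti-miR BDL. Of the 10 leukocyte markers 8 were tested, and 8 rose in miR-Ctrl BDL and 4 in anti-miR BDL, with sums of 58.7 to 294 CPM without BDL, 335 to 785.5 in miR-Ctrl BDL and 252 to 715 in anti-miR BDL. Of 8 stellate cell and fibroblast markers 3 and 4 rose, and of 8 endothelial markers 0 rose, 0 fell in miR-Ctrl BDL and 1 fell in anti-miR BDL, Kdr (-1.27, adjusted p = 0.0385). The summed endothelial level was also lowest in the mice standing apart, at 52.01 CPM in miR-Ctrl mouse 3 and 72.93 in anti-miR mouse 2, against 126 to 212 in the other 6 ligated mice. Cd3e and Cd79a, of T and B cells, were below the filter on low counts. In bulk liver, fewer hepatocytes and less RNA per hepatocyte cannot be told apart, and the part of these markers in the results was not tested.

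In livers without BDL, Abcb11 had the highest level per exon length of the 9, at 105.9 ± 29.1 CPM per kb (SD, n = 5), above every Abcg5 value, and took 46.2% of the summed level per kb of the exporters. Abcg5 followed at 32.3 ± 14.0, Abcg8 at 30.8 ± 12.5, Abcc2 at 21.6 ± 5.84 and Abcb4 at 21.3 ± 3.23 CPM per kb, and neighbours in that order overlapped. Abcg2 came next at 9.72 ± 1.38, below all Abcb4 values, and Atp8b1 (4.24 ± 1.08), Abcb1a (2.46 ± 0.532) and Atp7b (2.03 ± 0.527) closed the order on the same scale. The sum over the 9 genes was 230 ± 38.5 CPM per kb without BDL, 173 ± 19.2 in miR-Ctrl BDL and 166 ± 41.4 in anti-miR BDL (n = 4 each).

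The order differed after BDL. In both BDL groups Abcb4 stood second in mean level per kb, at 33.8 ± 14.6 and 34.8 ± 12.1 CPM per kb in miR-Ctrl and anti-miR BDL, above both sterol subunits, of which Abcg8 measured 10.04 ± 0.337 and 13.03 ± 9.15. Abcb11 stayed first in the group means, at 71.8 ± 23.3 and 63.0 ± 26.2 CPM per kb, but in miR-Ctrl mouse 3 and anti-miR mouse 2 it lay below Abcb4. Its share of the summed level per kb was 40.97 ± 9.998% and 38.7 ± 14.4%, and that of Abcb4 was 20.1 ± 10.1% and 21.1 ± 5.80%, against 9.33 ± 1.12% without BDL. In miR-Ctrl BDL only Abcg5 and Abcg8 of the first 6 in the order did not overlap with the next, and the order was not tested.

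The first comparison asks how BDL with the control oligonucleotide differs from no BDL. In it 5 of 9 exporters passed the threshold, against 35.7% of all 13072 genes tested (4 of 9 without miR-Ctrl mouse 3). Scaling by library size alone moved the median over all genes to a log2 fold change of 0.791 and its calls to 9360 higher and 275 lower, from 2491 and 2175 with TMM, so directions here are relative to the bulk of genes. Higher were 2, Abcb1a and Abcb4, where 19.1% of all genes were higher, and lower were 3, Abcg8, Abcg5 and Abcg2, where 16.6% were lower. With library size alone 4 were higher (Abcc2, Abcb4, Abcb1a and Atp8b1) and 1 lower (Abcg8), and with the 20 most counted genes left out of the library size 3 were higher (Abcb4, Abcb1a and Atp8b1) and 1 lower (Abcg8). The median log2 fold change of the 9 was -0.24, and that of all genes was -0.011. Abcb11, Abcc2, Atp8b1 and Atp7b did not pass.

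**Figure D1:**
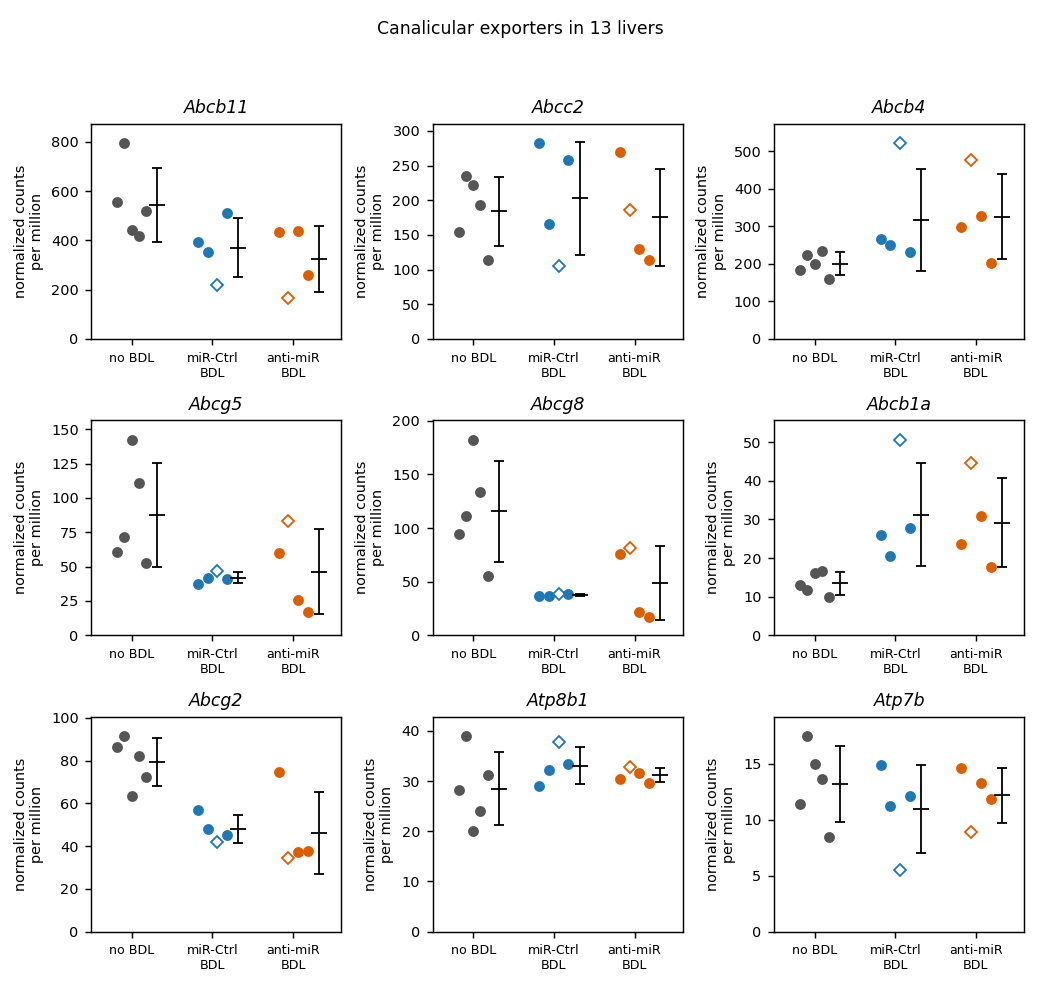
Normalized counts (CPM, vertical axes from 0) of the 9 exporters in 13 livers, by group. Each point is 1 mouse, open diamonds are miR-Ctrl mouse 3 and anti-miR mouse 2, and bars are the mean ± SD of the group. Abcg8 lies within 36.5 to 38.8 in the 4 livers of miR-Ctrl BDL and lies at 55.5 or more in the 5 without BDL, while the anti-miR BDL mice split into 2 above 75 and 2 below 22.

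The sterol exporter showed the largest falls. Abcg8, 1 subunit of the heterodimer, measured 94.9, 111, 182, 134 and 55.5 CPM in the 5 mice without BDL and 36.5, 36.7, 38.7 and 38.8 CPM in miR-Ctrl BDL. All 4 ligated livers lay below every liver without BDL and close to one another, with a coefficient of variation of 3.36% against 40.7%. The log2 fold change was -1.59 (SE 0.283, 3.01-fold lower, adjusted p = 0.00249).

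Abcg5, the other subunit, measured 60.7, 71.5, 142, 111 and 52.5 CPM without BDL and 37.5, 41.7, 47.1 and 40.7 CPM in miR-Ctrl BDL. Again the groups did not overlap, as for 14.8% of all genes in the lower direction, and the log2 fold change was -1.05 (SE 0.279, 2.06-fold lower, adjusted p = 0.0161). Both calls held without miR-Ctrl mouse 3, at -1.61 for Abcg8 (adjusted p = 0.00393) and -1.11 for Abcg5 (adjusted p = 0.0186), and in each of the 9 fits that left out 1 mouse. The call of Abcg5 was lost with library size alone, at -0.31 (adjusted p = 0.418), and without the 20 most counted genes, at -0.72 (adjusted p = 0.0744), where Abcg8 was at -0.84 (adjusted p = 0.0401) and -1.25 (adjusted p = 0.00823).

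The anti-miR BDL livers split for this pair. Abcg8 measured 75.9, 81.0, 21.7 and 16.9 CPM in mice 1 to 4, and Abcg5 measured 60.2, 82.9, 25.8 and 16.6 CPM. Mice 1 and 2 lay within the range without BDL for both subunits, and mice 3 and 4 lay below every miR-Ctrl BDL mouse. The coefficient of variation was 70.2% for Abcg8 and 66.3% for Abcg5. Against no BDL the log2 fold change was -1.23 (SE 0.506, adjusted p = 0.11) for Abcg8 and -0.91 (SE 0.467, adjusted p = 0.193) for Abcg5, and neither passed. Without anti-miR mouse 2 they were -1.58 (adjusted p = 0.052) and -1.34 (adjusted p = 0.0549).

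The pair moved together from mouse to mouse. Of 12098 other genes with a mean of at least 1 CPM, Abcg8 was the one whose centred log2 level came closest to that of Abcg5 over the 13 mice, with a root mean square difference of 0.295, and Abcg5 was the closest to Abcg8. Their own SDs on that scale were 0.821 and 1.02. Next to Abcg5 came Txnrd3 (0.333) and Tpd52l1 (0.342), and next to Abcg8 came Mfsd4b1 (0.367) and Cyp3a25 (0.383). These are descriptions over mice of 3 groups, which share the difference between groups.

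The 2 genes lie head to head on chromosome 17 of GRCm38. Abcg5 covers chr17:84658174-84683011 on the minus strand and Abcg8 chr17:84676302-84700333 on the plus strand. The annotated genes overlap, with 82 shared exon bases, and the library kit does not mark strand, so a read there cannot be assigned to 1 of them. Between the start of Abcg5 and the nearest listed start of Abcg8 lie 109 bases, chr17:84683012-84683120. They are printed on the plus strand from RefSeq (GRCm38.p6) because they lie between a start of each subunit. Capitals mark the match with at most 1 mismatch to the nuclear receptor half-site AGGTCA on either strand, which 92.6% of 32851 promoter windows of 300 bases hold.
Abcg5-Abcg8: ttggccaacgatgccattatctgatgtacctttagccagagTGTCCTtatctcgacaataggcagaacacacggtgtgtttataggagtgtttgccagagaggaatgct
No pair of half-sites 4 bases apart in the same direction (DR4, the arrangement bound by LXR) was found in the windows of Abcg5 and Abcg8, each running from 250 bases before to 50 after the start, and 1.75% of all windows hold one.

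**Figure D2:**
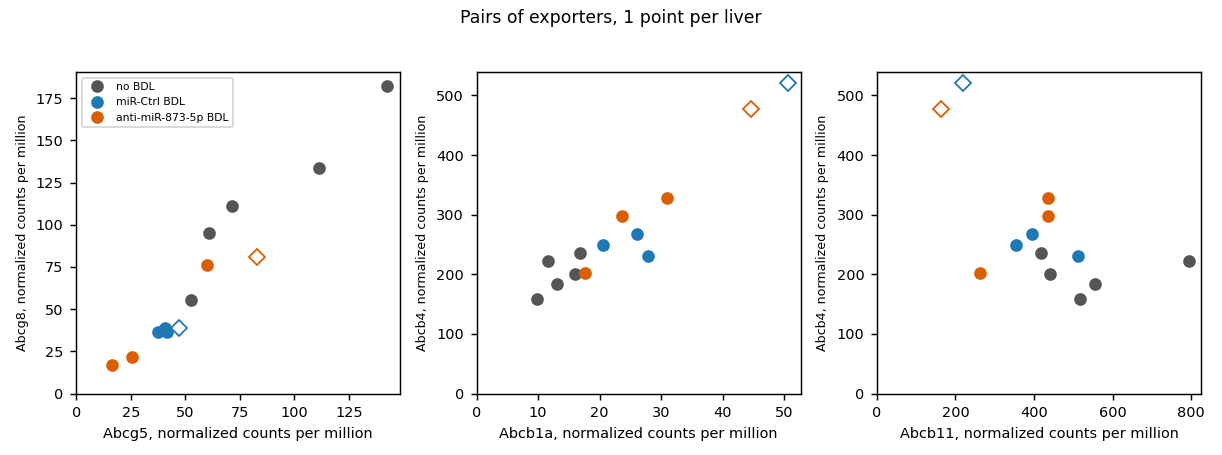
Normalized counts (CPM) of 2 exporters in each of 13 livers (grey no BDL, blue miR-Ctrl BDL, orange anti-miR BDL; open diamonds are miR-Ctrl mouse 3 and anti-miR mouse 2). Abcg5 and Abcg8 rise together (left), Abcb1a and Abcb4 do so with the 2 diamonds at the top (middle), and the same 2 livers combine the highest Abcb4 with the lowest Abcb11 (right).

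The phospholipid flippase and the drug pump rose. Abcb1a, which encodes the P-glycoprotein MDR1A, measured 13.1, 11.6, 16.0, 16.8 and 9.84 CPM without BDL and 26.0, 20.5, 50.6 and 27.8 CPM in miR-Ctrl BDL. Each ligated liver lay above all livers without BDL, as for 14.8% of all genes in the higher direction, and the log2 fold change was 1.23 (SE 0.254, 2.34-fold, adjusted p = 0.00488). Without miR-Ctrl mouse 3, the highest, it was 0.90 (adjusted p = 0.00367).

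In anti-miR BDL, Abcb1a measured 23.6, 44.5, 30.9 and 17.7 CPM, again above every mouse without BDL. Its log2 fold change was 1.13 (SE 0.253, 2.19-fold, adjusted p = 0.0137), and 0.86 (adjusted p = 0.0162) without anti-miR mouse 2. The call held in each of the 9 fits that left out 1 mouse, in both comparisons against no BDL. Of the 50-base windows of its transcripts, 17.6% also occur in Abcb1b or Abcb4, so some reads may have been counted on a relative.

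Abcb4 measured 184, 223, 200, 235 and 159 CPM without BDL, 267, 249.3, 521 and 231 CPM in miR-Ctrl BDL and 297, 477, 328 and 203 CPM in anti-miR BDL. The ranges overlapped, at miR-Ctrl mouse 4 and at anti-miR mouse 4, and the highest value of each BDL group was that of the mouse standing apart. This gave a log2 fold change of 0.68 (SE 0.239, 1.60-fold, adjusted p = 0.0486) in miR-Ctrl BDL and 0.72 (SE 0.226, 1.65-fold, adjusted p = 0.0458) in anti-miR BDL. Both calls lie at the edge of the threshold: without miR-Ctrl mouse 3 the first was 0.34 (adjusted p = 0.0796), without anti-miR mouse 2 the second was 0.49 (adjusted p = 0.0762), and each held in 1 of 9 fits that left out a mouse, the one without mouse 4 of its BDL group.

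Abcb4, Abcb1a and Abcb1b, the second rodent MDR1 gene, are neighbours on chromosome 5 of GRCm38, at chr5:8893614-8959226, chr5:8567091-8748575 and chr5:8798147-8866314. Abcb1b was the gene closest to Abcb4 (root mean square difference 0.213, beside an SD of 0.503) and also the one closest to Abcb1a (0.148, SD 0.695) of all 12098 compared. Next to Abcb4 came Eif4enif1 (0.238) and Dop1a (0.242), and next to Abcb1a came Lratd2 (0.26) and Coq8b (0.264). Of the Abcb1b windows of 50 bases 11.2% also occur in Abcb1a or Abcb4, and 1.56% of the Abcb4 windows occur in a related transporter, and the part of shared reads in these likenesses was not tested.

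Abcg2 (BCRP), an exporter of xenobiotics and of urate, fell in both comparisons with TMM, while scaling by library size alone turned its sign, to 0.141 and 0.075, which relative to the median of all genes is -0.650 and -0.742, and without the 20 most counted genes it was at -0.32 (adjusted p = 0.121) and -0.41 (adjusted p = 0.169). It measured 86.6, 91.4, 63.3, 82.3 and 72.5 CPM without BDL and 57.1, 48.2, 42.1 and 45.2 CPM in miR-Ctrl BDL, without overlap, as for 14.8% of all genes in the lower direction. The log2 fold change was -0.69 (SE 0.140, 1.61-fold lower, adjusted p = 0.00445), and it passed in each fit leaving out a mouse, at -0.64 (adjusted p = 0.00659) without miR-Ctrl mouse 3. In anti-miR BDL it measured 74.6, 34.5, 37.4 and 37.6 CPM. Mouse 1 lay within the range without BDL and the other 3 below it, and the log2 fold change was -0.76 (SE 0.239, 1.69-fold lower, adjusted p = 0.0475).

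That second call passed in 1 of the 9 fits that left out a mouse, the one without anti-miR mouse 1 (-1.10, adjusted p = 0.00153), and without anti-miR mouse 2 it was -0.65 (adjusted p = 0.07). The genes closest to Abcg2 were Lonp2 (root mean square difference 0.141, beside an SD of 0.497), Cmtm6 (0.179) and Trap1 (0.181). Closest to Abcb11 were Prdx4 (0.207, SD 0.598), Serpind1 (0.23) and Magt1 (0.239).

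**Figure D3:**
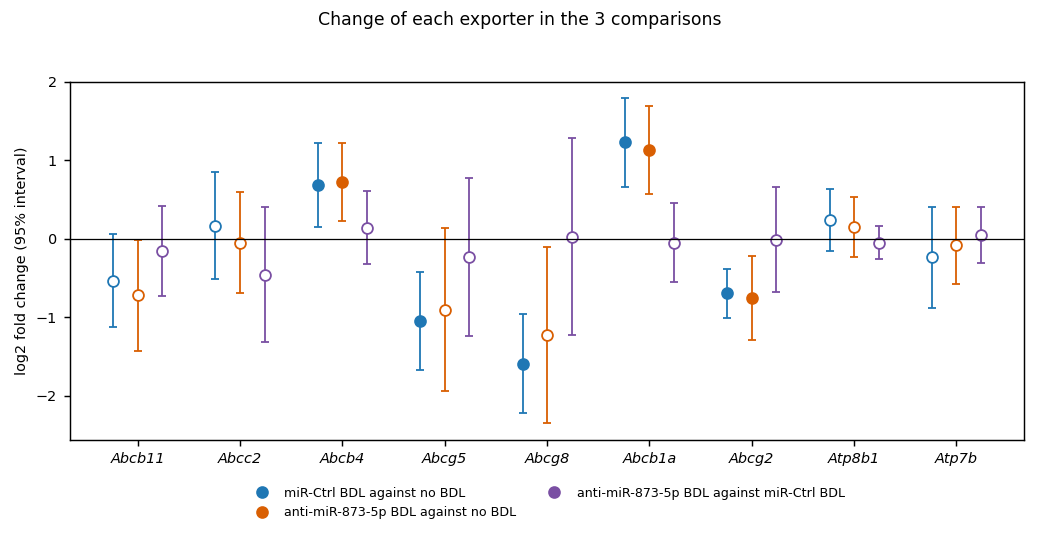
Log2 fold change (points) with its 95% interval (bars) of the 9 exporters in 3 comparisons, against no BDL (blue miR-Ctrl BDL, orange anti-miR BDL) and between the BDL groups (purple). Filled points passed an adjusted p of 0.05: 5 blue, 3 orange and 0 purple.

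The main bile salt pump did not pass. Abcb11 measured 554, 794, 441, 418 and 518 CPM without BDL, 394, 353, 220 and 511 CPM in miR-Ctrl BDL and 435, 164, 436 and 261 CPM in anti-miR BDL. The lowest value of each BDL group belonged to the mouse standing apart, and both BDL groups overlapped the range without BDL. The log2 fold change was -0.53 (95% interval -1.13 to 0.06, adjusted p = 0.146) in miR-Ctrl BDL and -0.72 (95% interval -1.43 to -0.01, adjusted p = 0.133) in anti-miR BDL. Without the mouse standing apart the values were -0.36 (adjusted p = 0.227) and -0.51 (adjusted p = 0.165).

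Abcb11 lies at chr2:69238282-69342616 on the minus strand, and of the 8 members with a promoter window, all but Atp8b1, it was the only one whose window held facing AGGTCA half-sites 1 base apart (IR1, the arrangement bound by the bile acid receptor FXR, each half-site with at most 1 mismatch). It held 2 of them, at positions -94 to -82 and -63 to -51 counted from the start, and 0.731% of all windows hold one. The 120 bases before the start, chr2:69342617-69342736, are printed on the strand of the gene from RefSeq (GRCm38.p6), with both matches in capitals.
Abcb11: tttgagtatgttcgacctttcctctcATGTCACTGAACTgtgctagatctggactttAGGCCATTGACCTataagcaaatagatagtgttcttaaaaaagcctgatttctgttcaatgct
A match is a description of letters and no evidence of binding here.

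Abcc2, the conjugate export pump, measured 155, 236, 223, 193 and 114 CPM without BDL, 282, 166, 106 and 258 CPM in miR-Ctrl BDL and 270, 187, 130 and 114 CPM in anti-miR BDL. The 3 groups overlapped over nearly their whole range. The log2 fold change was 0.17 (95% interval -0.51 to 0.85, adjusted p = 0.704) in miR-Ctrl BDL and -0.05 (95% interval -0.69 to 0.59, adjusted p = 0.922) in anti-miR BDL, intervals that leave room for changes in either direction. Without the mice standing apart it was 0.37 (adjusted p = 0.258) and -0.08 (adjusted p = 0.872). Closest to Abcc2 over the 13 mice were Ces1g (root mean square difference 0.199, beside an SD of 0.499), Tbcel (0.263) and Cyp2j6 (0.28).

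Its promoter window held the antioxidant response element TGACNNNGC, at positions -98 to -90, as 12.4% of all windows do, and an exact AGGTCA half-site, as 16.3% do. The 120 bases before its start, chr19:43782188-43782307 on the plus strand (RefSeq, GRCm38.p6), are printed with both in capitals, for comparison with the other main bile pump.
Abcc2: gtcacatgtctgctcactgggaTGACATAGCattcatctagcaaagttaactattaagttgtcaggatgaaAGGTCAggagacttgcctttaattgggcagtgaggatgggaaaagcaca
Abcb1a also held the response element, 27 to 35 bases after its start, and no other window of these 8 members did. None of their windows held half-sites 1 base apart in the same direction (DR1, the arrangement bound by HNF4A and PPAR), and 2.4% of all windows do.

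Neither P-type ATPase of the canaliculus passed with TMM. Atp8b1 measured 28.3, 38.9, 20.004, 23.9 and 31.3 CPM without BDL, 29.0, 32.2, 37.7 and 33.4 CPM in miR-Ctrl BDL and 30.4, 32.9, 31.5 and 29.7 CPM in anti-miR BDL. All 8 ligated livers lay within the range without BDL. In miR-Ctrl and anti-miR BDL its log2 fold change was 0.24 (95% interval -0.16 to 0.63, adjusted p = 0.326) and 0.15 (95% interval -0.23 to 0.54, adjusted p = 0.567), and without the mice standing apart 0.17 (adjusted p = 0.506) and 0.12 (adjusted p = 0.656). It passed with library size alone, at 1.06 (adjusted p = 0.000107) and 1.00 (adjusted p = 0.000305), and without the 20 most counted genes, at 0.60 (adjusted p = 0.00926) and 0.51 (adjusted p = 0.0292).

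Atp7b, which loads copper into bile, measured 11.4, 17.5, 15.0, 13.7 and 8.51 CPM without BDL, 14.9, 11.2, 5.53 and 12.1 CPM in miR-Ctrl BDL and 14.7, 8.95, 13.3 and 11.9 CPM in anti-miR BDL. The lowest of each BDL group was again the mouse standing apart. Its log2 fold changes were -0.24 (95% interval -0.88 to 0.41, adjusted p = 0.56) and -0.08 (95% interval -0.57 to 0.41, adjusted p = 0.815), and -0.03 (adjusted p = 0.931) and 0.03 (adjusted p = 0.927) without those mice. Closest to Atp8b1 were Cyb5r4 (root mean square difference 0.113, beside an SD of 0.248), Slain2 (0.124) and Btaf1 (0.133), and closest to Atp7b were Fzd5 (0.156, SD 0.417), Daam1 (0.159) and Mxd4 (0.18).

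The second comparison asks the same of BDL with anti-miR-873-5p. In it 3 of 9 exporters passed, against 21.5% of 13130 genes (1 of 9 without anti-miR mouse 2). All genes split into 1715 higher and 1108 lower, or into 10063 and 131 with library size alone, where the median of all genes was 0.817. Abcb1a and Abcb4 were higher, where 13.1% of all genes were, and Abcg2 was lower, where 8.44% were. With library size alone 5 were higher and 0 lower, and without the 20 most counted genes 3 were higher (Abcb4, Abcb1a and Atp8b1) and 0 lower. Only Abcb1a lay wholly above the mice without BDL, as for 10.1% of all genes, and no member lay wholly below, as 8.23% did. The median log2 fold change of the 9 was -0.08, beside -0.007 over all genes. This comparison uses the same 5 mice without BDL as the first, so the members' values in both are given side by side and not counted as repeats.

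The third comparison, of anti-miR BDL with miR-Ctrl BDL, addresses the inhibitor itself, with miR-Ctrl mice 1, 2 and 4 and anti-miR mice 1, 3 and 4. In it 0 of 9 exporters passed the threshold in edgeR, as did 0% of 13746 genes in either direction, with 863 genes at an unadjusted p under 0.05. No exporter was among those 863, and DESeq2's Wald test called 29 genes and 0 exporters. The groups overlapped for all 9 members, while 6.59% of all genes lay wholly higher and 4.77% wholly lower. The log2 fold changes ran from -0.46 for Abcc2 (95% interval -1.32 to 0.40) to 0.14 for Abcb4 (95% interval -0.32 to 0.61).

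The intervals differ in what they leave room for. Atp8b1 was the narrowest, at -0.05 with a 95% interval of -0.26 to 0.16, followed by Atp7b, at 0.05 with an interval of -0.31 to 0.41. Abcg8 was the widest, at 0.03 with an interval of -1.22 to 1.28, since its 3 anti-miR livers measured 75.9, 21.7 and 16.9 CPM. Abcb11 was at -0.16 (95% interval -0.73 to 0.42), Abcb1a at -0.05 (-0.55 to 0.46), Abcg2 at -0.01 (-0.68 to 0.65) and Abcg5 at -0.23 (-1.23 to 0.77). With all 4 mice of each group, Abcg5 was at 0.16 and Abcg8 at 0.38, and again 0 of 9 passed.

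The microRNA that the inhibitor targets, mmu-miR-873a-5p in RefSeq (chr4:36668556-36668576, minus strand), is printed with its seed, bases 2 to 8, in capitals.
mmu-miR-873a-5p: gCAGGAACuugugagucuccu
The match to the seed, GTTCCTG, occurs in the longest 3′ UTR (GENCODE M21) of 1 of the 9 exporters, Atp7b, where it starts 1025 bases after the stop codon, and in 14.1% of 20998 genes. The Atp7b site is printed with its flanks and with the match in capitals.
Atp7b site: cagtgaaaatGTTCCTGttgtcagcta
The log2 fold change of Atp7b between the BDL groups was 0.05, as given above. The other 8 hold no such match in the 3′ UTRs searched, which for Abcb4 has 51 bases and for Abcg5 has 254. Only the exact match to bases 2 to 8 was searched, so shorter or imperfect sites are not counted. Its absence does not show that a gene is no target.

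Ratios of 2 transporters within a liver do not depend on how libraries are scaled. For 6 pairs of genes in 3 comparisons, the exact two-sided permutation test could reach p = 0.0159 with 4 mice against 5 and 0.1 with 3 against 3, and after adjustment over the 18 tests no ratio passed 0.05. Of the 12 tests against no BDL, 5 reached that smallest p, and their adjusted value was 0.0571. These 5 are not separate results, since both comparisons use the same mice without BDL and the pairs share genes. Reaching the smallest p means that the groups do not overlap, and how often other pairs of genes do so was not tested.

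Abcg5 to Abcg8 was 1 of them. Its ratio of counts was 0.640, 0.645, 0.781, 0.831 and 0.946 without BDL and 1.03, 1.14, 1.22 and 1.05 in miR-Ctrl BDL, without overlap, 1.46-fold higher (exact permutation p = 0.0159, adjusted p = 0.0571). In anti-miR BDL it was 0.792, 1.02, 1.19 and 0.986, which overlaps the mice without BDL (exact permutation p = 0.0635).

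Abcb4 to Abcb11, phospholipid flippase to bile salt pump, was another. The ratio of counts was 0.331, 0.281, 0.454, 0.563 and 0.307 without BDL, 0.677, 0.706, 2.37 and 0.452 in miR-Ctrl BDL and 0.684, 2.90, 0.751 and 0.777 in anti-miR BDL. In anti-miR BDL every mouse lay above those without BDL (2.77-fold, exact permutation p = 0.0159, adjusted p = 0.0571), and in miR-Ctrl BDL mouse 4 overlapped (2.26-fold, exact permutation p = 0.0476, adjusted p = 0.122). Without the mice standing apart the folds were 1.97 and 1.61.

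Atp8b1 to Abcb11 was higher in all 8 ligated livers than in any without BDL, 0.0653 to 0.200 against 0.0455 to 0.0604. The ratio was 1.78-fold higher in miR-Ctrl BDL and 1.98-fold higher in anti-miR BDL (exact permutation p = 0.0159 and adjusted p = 0.0571 in both), and 1.45-fold and 1.59-fold without the mice standing apart. Abcb1a to Abcb4 was 1.47-fold higher in miR-Ctrl BDL (exact permutation p = 0.0159, adjusted p = 0.0571) and 1.32-fold higher in anti-miR BDL (exact permutation p = 0.0317, adjusted p = 0.0952).

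Abcb1a to Abcb1b, the 2 MDR1 genes, was 1.78 to 2.12 without BDL, 2.03 to 2.56 in miR-Ctrl BDL and 2.04 to 2.68 in anti-miR BDL, with overlapping ranges (exact permutation p = 0.143 and 0.222). Abcb11 to Abcc2 was 0.629-fold and 0.610-fold that without BDL (exact permutation p = 0.0794 and 0.159). Between the BDL groups the 6 ratios differed by 0.877-fold to 1.28-fold, with overlap in all of them.

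**Figure D4:**
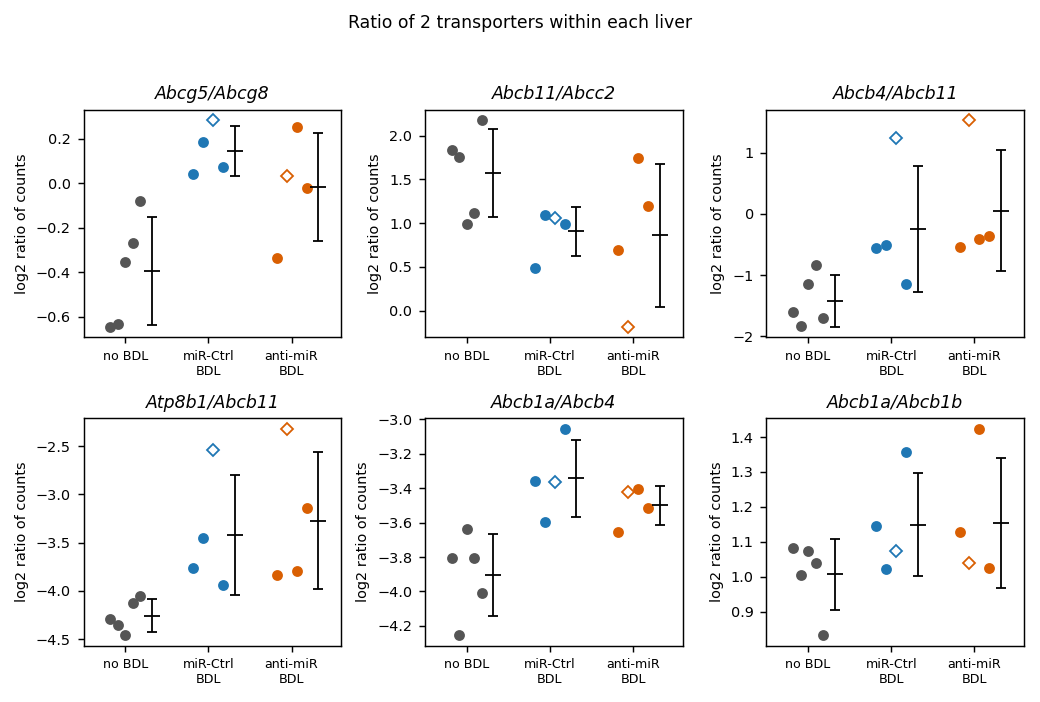
Log2 ratio of the counts of 2 transporters within each of 13 livers (vertical axes), by group. Each point is 1 mouse, open diamonds are miR-Ctrl mouse 3 and anti-miR mouse 2, and bars are the mean ± SD. Atp8b1/Abcb11 is higher in all 8 ligated livers than in any of the 5 others, and Abcg5/Abcg8 in the 4 miR-Ctrl BDL livers.

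Genes that work beside the pumps in the canalicular membrane were taken as 1 list, of which 17 are described. In miR-Ctrl BDL 4 were higher and 4 lower (beside 19.1% and 16.6% of all genes), with a median log2 fold change of -0.13. In anti-miR BDL 2 were higher and 4 lower (beside 13.1% and 8.44% of all genes), with a median of -0.30. Between the BDL groups 0 of 17 passed. Without the mice standing apart the counts were 3 higher and 6 lower with miR-Ctrl, and 2 and 3 with anti-miR. With library size alone they were 10 higher and 0 lower, and 9 and 0. Levels of listed genes are CPM on the scale of each comparison's own table. Ezr, the actin linker ezrin, rose most, from 5.13 ± 1.35 to 24.1 ± 7.64 CPM in miR-Ctrl BDL (log2 fold change 2.22, SE 0.251, adjusted p = 0.000288) and by 1.94 (adjusted p = 0.00261) in anti-miR BDL. Ezrin is also a protein of bile duct epithelium, whose markers rose in the same livers, and their part in its rise was not tested.

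Abcb1b rose by 1.11 (adjusted p = 0.00911) in miR-Ctrl BDL and 1.00 (adjusted p = 0.0223) in anti-miR BDL. Myo5b, a motor that carries vesicles to the apical membrane, rose by 0.35 (SE 0.116, adjusted p = 0.0396) in miR-Ctrl BDL and was at 0.30 (SE 0.113, adjusted p = 0.0837) in anti-miR BDL. Lower in miR-Ctrl BDL were Slc47a1, the cation and proton antiporter MATE1 (-1.31, SE 0.197, adjusted p = 0.00108), Pdzk1, a scaffold for apical transporters (-0.96, SE 0.150, adjusted p = 0.00129), and Ceacam1, an adhesion protein of the canalicular membrane (-0.75, SE 0.140, adjusted p = 0.00312), which turned sign with library size alone, at 0.049. With library size alone Slc47a1 was at -0.49 (adjusted p = 0.0847) and Pdzk1 at -0.14 (adjusted p = 0.492).

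Among the genes of the list past the threshold, the 3 that fell most in anti-miR BDL with TMM were Slc30a10, a manganese exporter (-1.53, SE 0.329, adjusted p = 0.0118), Slc47a1 (-0.79, SE 0.237, adjusted p = 0.0394) and Tmem30a, the subunit that Atp8b1 needs to leave the endoplasmic reticulum (-0.76, SE 0.152, adjusted p = 0.00879), of which Slc47a1 and Tmem30a turned sign with library size alone, at 0.015 and 0.066. Without anti-miR mouse 2 Slc47a1 was at -0.69 (adjusted p = 0.0566). In miR-Ctrl BDL Tmem30a was lower as well (-0.64, SE 0.103, adjusted p = 0.00142), and Slc30a10 was at -0.92 (adjusted p = 0.0744). Ceacam1 was also lower in anti-miR BDL (-0.62, adjusted p = 0.0475), where Pdzk1 was at -0.67 (adjusted p = 0.132). With library size alone this Tmem30a value was 0.164 and this Ceacam1 value 0.185.

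Of 16 regulators of hepatic transport, 15 were tested, and Vdr was below the filter. In miR-Ctrl BDL 2 were higher and 8 lower (beside 19.1% and 16.6% of all genes), with a median log2 fold change of -0.59. With library size alone 7 were higher and 1 lower, Ppara at -1.09 (adjusted p = 0.0101). Ppara, the fatty acid receptor, went from 164 ± 57.3 to 45.2 ± 9.38 CPM (-1.86, SE 0.294, adjusted p = 0.00133), Nr1i3 (CAR) fell by 1.18 on the log2 scale (adjusted p = 0.0119) and Cebpa by 1.11 (adjusted p = 0.000944). Nr1h4, which encodes FXR and was named after its values were seen, went from 97.6 ± 19.2 to 49.7 ± 6.62 CPM (-0.97, SE 0.166, adjusted p = 0.00196). Ahr (0.68, adjusted p = 0.0486) and Nfe2l2, which encodes NRF2 (0.43, adjusted p = 0.0361), were the 2 that rose, and Ahr was at 0.50 (adjusted p = 0.111) without miR-Ctrl mouse 3, when 1 was higher and 8 lower.

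In anti-miR BDL 0 regulators were higher and 2 lower (beside 13.1% and 8.44% of all genes), with a median of -0.25. Lower were Cebpa (-0.76, SE 0.238, adjusted p = 0.0471) and Foxa2 (-0.56, SE 0.177, adjusted p = 0.0481). Both turned sign with library size alone, at 0.069 and 0.288, when 9 regulators were higher and 0 lower. Without anti-miR mouse 2, 1 was higher and 2 lower, and Cebpa was at -0.61 (adjusted p = 0.0531). With all anti-miR mice Nr1h4 was at -0.46 (adjusted p = 0.115), Ppara at -0.96 (adjusted p = 0.0576) and Nr1i3 at -0.18 (adjusted p = 0.794). Foxa2 was lower in miR-Ctrl BDL too (-0.715, SE 0.141, adjusted p = 0.0039), and was at 0.101 there with library size alone. The difference between the BDL groups is tested directly in the third comparison, where 0 of 15 passed, the median was 0.11, and Nr1h4 was at 0.57 (SE 0.191, adjusted p = 0.757) and Ppara at 0.83 (SE 0.316, adjusted p = 0.763).

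Basolateral exporters, which return solutes to the blood, were a list of 8, of which 7 were tested and Slc51a was below the filter. In miR-Ctrl BDL 4 were higher and 1 lower (beside 19.1% and 16.6% of all genes), with a median log2 fold change of 0.88. In anti-miR BDL 3 were higher and 1 lower (beside 13.1% and 8.44% of all genes), with a median of 0.48. The counts of exporters were equal without the mice standing apart. With library size alone 6 were higher and 0 lower in both. Slc51b, a subunit of the organic solute transporter, rose from 0.341 ± 0.346 to 7.38 ± 2.20 CPM in miR-Ctrl BDL (4.38, SE 0.565, adjusted p = 0.000539) and by 3.502 (adjusted p = 0.00526) in anti-miR BDL. Abcc1 (MRP1) rose by 2.10 (SE 0.348, adjusted p = 0.00171) and 1.84 (SE 0.376, adjusted p = 0.00958), and Abcc5 (MRP5) by 1.41 (SE 0.216, adjusted p = 0.00116) and 1.30 (SE 0.250, adjusted p = 0.00748).

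Abcc6 was the 1 basolateral exporter that fell, from 161 ± 39.4 to 66.1 ± 20.9 CPM in miR-Ctrl BDL (-1.28, SE 0.264, adjusted p = 0.0048) and by 0.93 (adjusted p = 0.0183) in anti-miR BDL, with TMM. Between the BDL groups 0 of 7 passed, with a median of -0.23. Slc51b and Abcc1 are low in livers without BDL and are also expressed outside hepatocytes, and the part of other cell types in their rise was not tested.

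**Figure D5:**
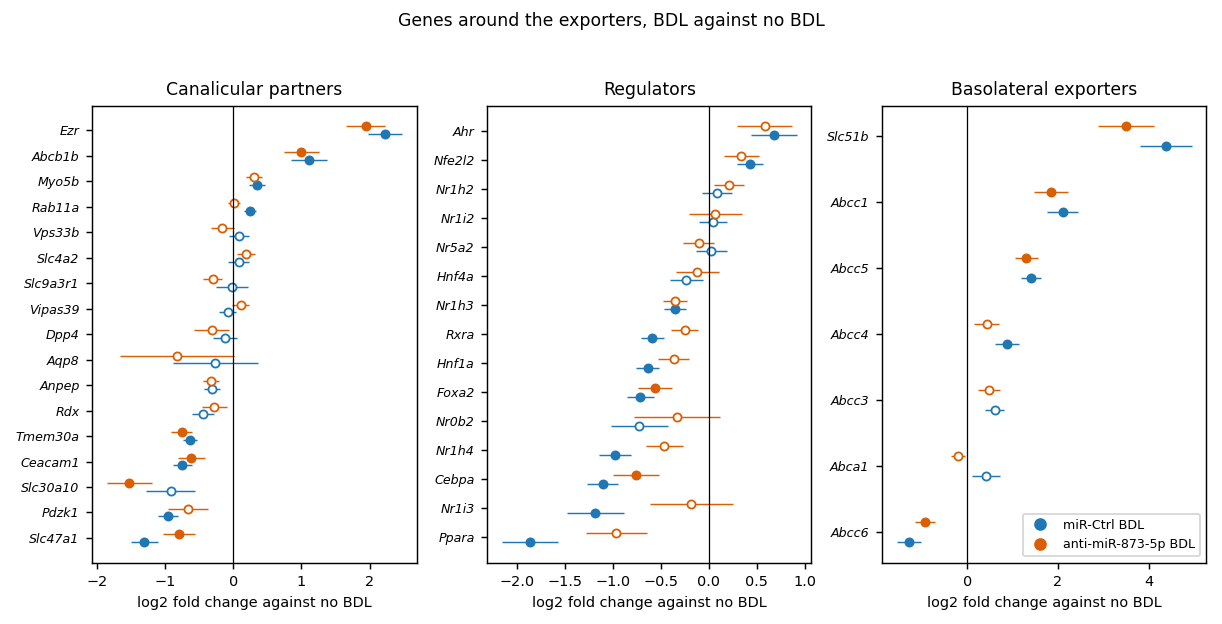
Log2 fold change against no BDL (horizontal axes) with its SE (bars) for 17 canalicular partners, 15 regulators and 7 basolateral exporters, in miR-Ctrl BDL (blue) and anti-miR BDL (orange). Filled points passed an adjusted p of 0.05, and 8 of 15 regulators lie filled on the negative side in miR-Ctrl BDL against 2 in anti-miR BDL (with TMM, against 1 and 0 with library size alone). With TMM 16.6% and 8.44% of all genes were lower. Both comparisons use the same mice without BDL, and 0 of 15 regulators passed between the BDL groups.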

How the data were processed

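Liver libraries (TruSeq RNA v2) were read by the authors as single 50-nt reads and aligned with TopHat (mm10). The authors deposited raw counts per Entrez gene, 1 table for each comparison. The submitters' processing notes also name CASAVA 1.8.2, FastQC, Trim Galore and DESeq2. The counting program is not given in the sources used here. Mice came from the column labels. Entrez identifiers were matched to RefSeq symbols of GRCm38.p6, and exon lengths are from GENCODE M21.

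Tests ran under R 4.3.3, with edgeR 4.0.16 and, as an alternative, DESeq2 1.42.0. Each comparison used its own table, edgeR's filterByExpr and TMM, the quasi-likelihood test and Benjamini-Hochberg adjustment over all genes tested. SEs were derived from the log2 fold change and its F statistic. Levels of all 13 mice use 22250 genes, of which 22246 have identical counts in the tables (Abcg8 differs by 1 read in 1 mouse). Ratios used a pseudocount of 0.5. The fits were tested on simulated data. Depth was 12185333 to 19689037 counts per mouse.

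Named are the 9 members, from each list up to 3 genes past the threshold with the largest change in each direction, and the 3 genes closest to each member. Of the list of 19 canalicular partners, 2 are not reported here and enter none of its counts. The members and lists were chosen with earlier results of these data known. Motifs were searched on both strands. Alternatives were other scalings, DESeq2's Wald test, other filters, 1 fit to all 3 groups, a block for mouse number and leaving out each mouse.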

Additional observations from a re-analysis of the deposited data

Results flagged for a closer look

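In groups of 4 or 5 mice, a mouse was marked where its gap to the nearest other mouse, divided by the range of the group, exceeded Dixon's critical value. Of 45 groups of values tested, 3 were marked, and chance marks about 1 in 20 groups. Abcb4 in miR-Ctrl BDL was marked for mouse 3, at 520.9 CPM (normalized counts) against 231 to 267 in the other 3. The log2 ratio of Abcb4 to Abcb11 in anti-miR BDL was marked for mouse 2, at 1.54 against -0.55 to -0.36 in the others. These are the 2 mice absent from the table of both BDL groups. Abcg2 in anti-miR BDL was marked for mouse 1, at 74.65 against 34.5 to 37.6 in the others.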

How the results depend on the processing

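Of 52 comparisons of a count of exporters or a ratio with an alternative setting other than leaving out a mouse, 48 kept the direction of the ratio or the total of the count within 1.5 times. Of these 52, 18 only changed the pseudocount of the ratios from 0.5 to 1. The counts between the BDL groups were 0 in every setting. Those could hardly have moved, so 48 of 52 is not a measure of stability. The totals hide changes of direction and of genes: in miR-Ctrl BDL the 5 exporters past the threshold were 2 higher and 3 lower with TMM, and 4 higher and 1 lower with library size alone. The latter moved the exporters past the threshold in anti-miR BDL against no BDL from 3 to 5, all higher (Abcc2, Abcb4, Abcb1a, Atp8b1 and Atp7b), and 1 fit to all 3 groups gave 3 in miR-Ctrl BDL (Abcg8, Abcb1a and Abcg2). With all 4 mice of each BDL group, the log2 ratio of Abcb11 to Abcc2 between these groups was -0.046 and Abcg5 was at 0.156, and 1 fit to all groups put Abcg5 at 0.149.

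Library size alone turned the sign of Abcb11 (0.313 in miR-Ctrl BDL, 0.139 in anti-miR BDL), Abcg2 (0.141 and 0.075), Atp7b (0.592 and 0.745), Ceacam1 in miR-Ctrl BDL (0.049) and, in anti-miR BDL, Abcc2 (0.736), Cebpa (0.069), Foxa2 (0.288), Slc47a1 (0.015) and Tmem30a (0.066). It moves the median of all genes as well, as given above. Leaving the 20 genes with the most counts out of the scaling turned Atp7b (0.153 and 0.267), Abcc2 in anti-miR BDL (0.270) and Abcg8 between the BDL groups (-0.037).

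The labels do not say whether mouse number pairs the mice. Deviations of same-numbered mice correlated at -0.0703 to 0.0336 in the first comparison and -0.211 to 0.0917 in the second. In both, 0 of 8 mice were closest to their own number. The third had -0.0513 and 0.382, with 2 of 4 closest. With so few mice a group, these correlations cannot exclude a pairing. With mouse number as a block, 4 exporters passed in miR-Ctrl BDL (Abcb4 had an adjusted p of 0.15 in edgeR), 0 in anti-miR BDL and 0 between the BDL groups, while calls over all genes were 4053, 2187 and 0. The block turned Abcc2 in miR-Ctrl BDL (-0.046) and, between the BDL groups, Abcb4 (-0.021), Abcg2 (0.056), Abcg8 (-0.060) and Atp7b (-0.031).

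Leaving out each mouse gave 4 to 5 exporters in miR-Ctrl BDL, 1 to 2 in anti-miR BDL and 0 between the BDL groups. Log2 fold changes then spanned zero for Abcc2 in miR-Ctrl BDL (-0.043 to 0.372) and in anti-miR BDL (-0.344 to 0.106) and for Atp7b in anti-miR BDL (-0.205 to 0.041). Between the BDL groups they did so for Abcb11 (-0.275 to 0.052), Abcb1a (-0.270 to 0.134), Abcg2 (-0.430 to 0.157), Abcg5 (-0.928 to 0.103), Abcg8 (-0.965 to 0.387) and Atp7b (-0.033 to 0.185), and for the ratios Abcb1a to Abcb1b (-0.097 to 0.109), Abcg5 to Abcg8 (-0.277 to 0.017) and Atp8b1 to Abcb11 (-0.095 to 0.263). The cause of these shifts was not tested. With 3 mice a group, the intervals given for the third comparison bound what could be seen.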
